A study of Rattus norvegicus with 24 samples.

Results

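Levels of 10 rat genes, Mapk3, Aldoa, Doc2a, Ino80e, Taok2, Kctd13, Sez6l2, Mvp, Prrt2 and Maz, were examined in whole hippocampus of rats from lines selectively bred for high or low exploratory activity. They are orthologs of genes in the human 16p11.2 interval, whose recurrent deletion and duplication in people are associated with neurodevelopmental conditions. The symbols were matched to the Ensembl genes of chromosome 1 in the study's gene annotation, and all 10 were found among the 32883 genes of the count table. In the Rnor6 build the 10 genes lie between chr1:198192773-198460126, a stretch of 267354 bp, and the named genes from Coro1a to Spn around them number 22.

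The rats were F0 animals of the bred High Responder (bHR) and bred Low Responder (bLR) lines, tested for behavior and given no other treatment in the labels, with 6 males and 6 females of each line. Each line is a closed selectively bred colony, so a difference between them belongs to these colonies and to all that separates them. The labels put the rats in 12 families of 1 male and 1 female, where the study's text counts every rat as its own family. By the labels the males were 151 to 165 days old, and the females used here 188 to 192 days, ages that are both above the range in the study's text. The sexes were dissected on different days, so sex, age and day of dissection cannot be told apart. The bHR female of family H05, which the labels mark as having failed quality control (RIN 6.3), was left out, leaving 23 rats: 5 bHR females and 6 rats in each other subgroup.

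Library totals of the 23 rats ran from 16824899 to 28443049 counts, and RIN from 8.70 to 9.80. Ribosomal RNA made up 1.23% to 3.98% of the reads by the labels (%rRNA), and reads outside genes 8.74% to 13.5% (%intergenic). The median %intergenic was 9.44% in bHRs and 10.8% in bLRs. Of 28 marker symbols for the cell types of the hippocampus and its surroundings, 3 could be matched to an identifier: Mag of oligodendrocytes, Folr1 of choroid plexus and Hbb of red blood cells. The neuronal identity of the tissue was therefore not checked with markers. None of the 3 was called for lineage. Hbb was called for sex and was lower in females (Log2FC -2.02, SE 0.34, FDR = 0.00273 by edgeR's quasi-likelihood test), with 33.9 to 834 CPM (counts scaled to a common library size) in females and 468 to 3398 in males, and its part in the sex comparisons below was not tested.

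The proteins made from this stretch work in different compartments of the cell. Mapk3 encodes ERK1, the kinase at the end of the Ras-Raf-MEK cascade, Taok2 a kinase of the TAO family that acts upstream of stress-activated kinases, and Kctd13 an adaptor that brings substrates to the Cullin 3 ubiquitin ligase. Doc2a encodes a calcium sensor of synaptic vesicle release, Prrt2 a presynaptic membrane protein that interacts with the release machinery, and Sez6l2 a neuronal membrane protein of the Sez6 family. Aldoa encodes the glycolytic enzyme aldolase A, and Mvp the major vault protein, the main component of the vault ribonucleoprotein particle. Maz encodes a zinc finger protein that binds G-rich promoter DNA, and Ino80e a subunit of the INO80 chromatin remodelling complex. In hippocampus, ERK signaling is known for its part in synaptic plasticity, and loss of Prrt2 function is known as a cause of paroxysmal dyskinesia and infantile seizures in people.

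The genes are packed tightly, and several read in opposite directions. In order along chromosome 1 they are Mapk3, Aldoa, Doc2a, Ino80e, Taok2, Kctd13, Sez6l2, Mvp, Prrt2 and Maz. Mapk3 (chr1:198192773-198198975), Doc2a (chr1:198284473-198288113), Kctd13 (chr1:198360627-198378934) and Sez6l2 (chr1:198383201-198403544) lie on the plus strand. Aldoa (chr1:198228387-198233588), Ino80e (chr1:198287490-198298076), Taok2 (chr1:198301938-198320075), Mvp (chr1:198420806-198450047), Prrt2 (chr1:198451324-198454914) and Maz (chr1:198456699-198460126) lie on the minus strand. The annotated ends of Doc2a and Ino80e overlap by 624 bp on opposite strands, and reads were counted by strand. Mvp overlaps its neighbor Pagr1 by 1008 bp on the same strand, where reads cannot be given to either gene. RefSeq lists 9 Aldoa and 3 Mapk3 pseudogenes, and reads that fit a copy equally well were dropped by the authors' unique-hit rule, so that the counts of both genes are uncertain by an unknown amount.

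The promoters of 5 of the genes are shown because they belong to members of the 3 closest pairs described below (Kctd13 with Mapk3, Prrt2 with Maz, and Taok2 with Sez6l2). Each is the RefSeq window of the GRCr8 build from 250 bases before to 50 bases after the annotated start, printed 5′ to 3′ on the strand of the gene. Capitals mark GGGCGG, the GC box core known to be bound by Sp1-type factors, and GGGAGGG, a G-rich motif known to be bound by MAZ itself, on either strand, so that CCGCCC and CCCTCCC are the same motifs on the other strand. The windows are chr1:190964823-190965122 on the plus strand for Kctd13, chr1:190924472-190924771 on the minus strand for Taok2, chr1:190987397-190987696 on the plus strand for Sez6l2, chr1:191059129-191059428 on the minus strand for Prrt2 and chr1:191064840-191065139 on the minus strand for Maz.
Kctd13: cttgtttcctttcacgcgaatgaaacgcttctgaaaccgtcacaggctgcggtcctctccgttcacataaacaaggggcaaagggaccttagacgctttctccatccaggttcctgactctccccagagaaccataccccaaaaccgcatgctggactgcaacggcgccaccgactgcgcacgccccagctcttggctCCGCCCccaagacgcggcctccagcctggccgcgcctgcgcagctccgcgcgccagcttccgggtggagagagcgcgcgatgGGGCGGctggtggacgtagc
Taok2: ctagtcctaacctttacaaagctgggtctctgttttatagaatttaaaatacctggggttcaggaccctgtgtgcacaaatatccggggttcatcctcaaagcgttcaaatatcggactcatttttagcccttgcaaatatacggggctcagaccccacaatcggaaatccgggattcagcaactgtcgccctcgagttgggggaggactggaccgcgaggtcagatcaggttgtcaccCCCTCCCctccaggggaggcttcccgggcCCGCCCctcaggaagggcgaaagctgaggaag
Sez6l2: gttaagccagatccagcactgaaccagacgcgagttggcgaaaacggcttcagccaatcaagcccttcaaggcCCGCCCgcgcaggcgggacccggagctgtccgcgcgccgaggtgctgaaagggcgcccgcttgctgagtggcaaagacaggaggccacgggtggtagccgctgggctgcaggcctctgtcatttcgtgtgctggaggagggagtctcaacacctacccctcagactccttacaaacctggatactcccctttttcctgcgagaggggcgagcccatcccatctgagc
Prrt2: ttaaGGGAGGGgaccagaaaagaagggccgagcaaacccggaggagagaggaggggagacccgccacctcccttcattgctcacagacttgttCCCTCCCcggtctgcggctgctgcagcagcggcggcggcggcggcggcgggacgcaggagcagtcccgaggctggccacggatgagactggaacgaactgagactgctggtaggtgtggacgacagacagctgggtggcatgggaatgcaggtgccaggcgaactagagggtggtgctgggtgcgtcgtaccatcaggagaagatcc
Maz: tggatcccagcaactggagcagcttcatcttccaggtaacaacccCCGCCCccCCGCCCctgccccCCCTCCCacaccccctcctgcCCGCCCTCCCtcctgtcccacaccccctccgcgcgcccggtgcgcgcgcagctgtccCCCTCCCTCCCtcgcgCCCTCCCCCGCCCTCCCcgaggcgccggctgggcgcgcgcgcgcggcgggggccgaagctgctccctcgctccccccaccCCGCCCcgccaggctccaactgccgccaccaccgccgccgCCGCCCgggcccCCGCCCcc

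The Maz window stood out in composition. It was 80.3% G and C, above 99.1% of the 33469 rat windows (median 51.7%), and held 7 copies of GGGCGG and 6 of GGGAGGG, with 2 overlaps between the motifs. Kctd13 (63.7% G and C) held 2 copies of GGGCGG and none of GGGAGGG, and Prrt2 (64.3%) held 2 of GGGAGGG and none of GGGCGG. Sez6l2 (62.7%) held 1 GGGCGG and Taok2 (54.0%) 1 of each motif. Of all windows 33.1% held GGGCGG and 20.8% held GGGAGGG, and a match is a stretch of letters, not a measured binding site. The 7 members with a window were these 5, Mvp and Aldoa, the last with 3 windows. Mapk3, Doc2a and Ino80e had none in the table used.

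All 10 genes passed the expression filter (1 CPM or more in 6 or more of the 23 rats), and the lowest count of any of them in any rat was 91. The levels below are TMM-scaled CPM, which are not divided by transcript length, so a level can be compared between rats but not between genes. In bulk tissue, fewer cells of a type and less RNA per cell cannot be told apart.

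Among the signaling genes, Mapk3 ran from 18.3 to 93.4 CPM over the 23 rats (median 53.6), a 5.10-fold range. Kctd13 ran from 20.6 to 102 CPM (median 69.2), and Taok2 from 13.2 to 62.2 CPM (median 27.6). The rat with the least Mapk3 was also the rat with the least Kctd13, the bLR male of family L07. Among the vesicle release and neuronal membrane genes, Sez6l2 had the widest range of the 10 genes, from 16.5 to 134 CPM (median 42.7), or 8.15-fold. Prrt2 ran from 16.6 to 80.02 CPM (median 36.5) and Doc2a from 5.05 to 18.0 CPM (median 10.8).

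Aldoa ran from 579 to 1521 CPM (median 1130) and Mvp from 6.72 to 15.1 CPM (median 9.74). Of the nuclear genes, Maz ran from 7.72 to 32.6 CPM (median 15.6), while Ino80e had the narrowest range, from 41.9 to 70.6 CPM (median 53.1), or 1.68-fold. Within subgroups of line and sex the coefficient of variation of CPM was 14.9% for Ino80e and 63.3% for Sez6l2, against a median of 33.0% over the 13838 genes tested. That placed Ino80e at percentile 6.71 of all genes and Sez6l2 at percentile 94.5. Mvp (19.6%) and Aldoa (26.2%) were also below the median gene, and the other 6 members lay between 35.3% (Doc2a) and 48.3% (Prrt2). The CV was not adjusted for %rRNA and %intergenic. By edgeR's dispersion, a measure of spread between rats with both in the model, Sez6l2 stood at percentile 63.0. Doc2a was then the highest of the 10, at percentile 89.5, and Ino80e the lowest, at percentile 0.473.

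**Figure D1:**
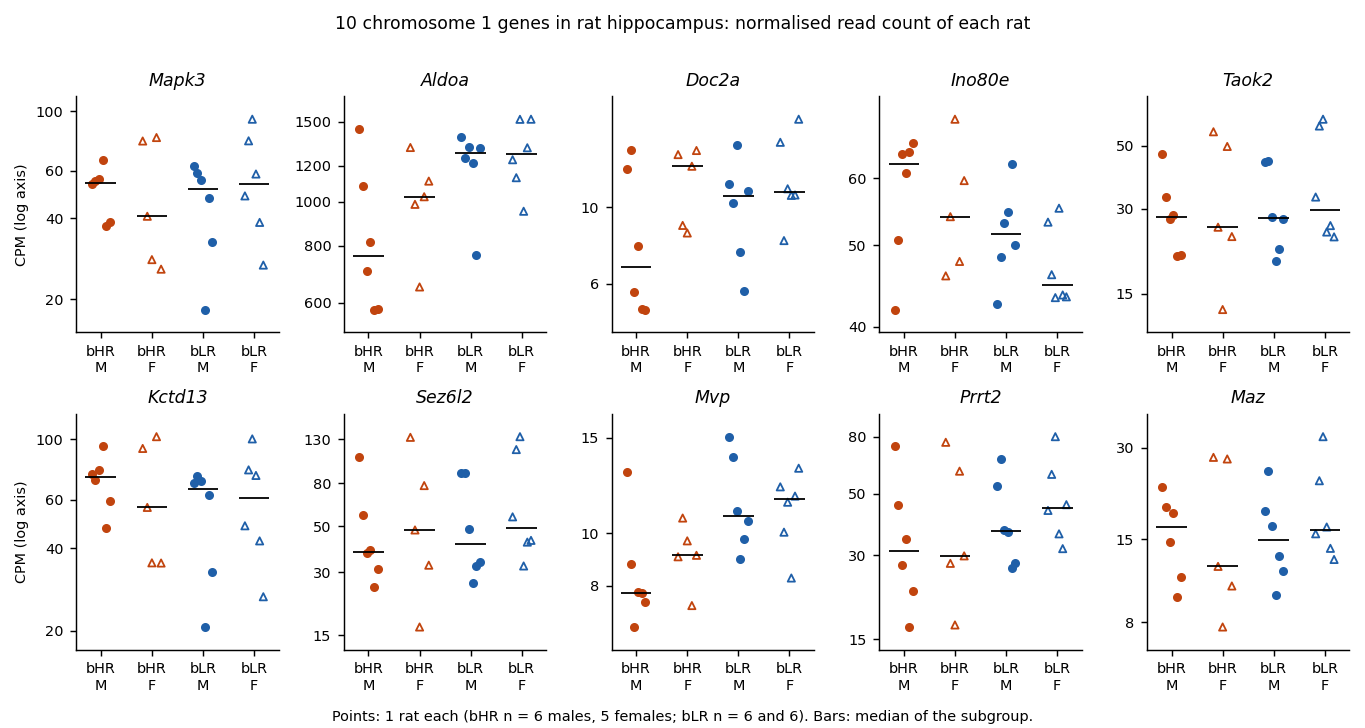
Levels of the 10 genes in TMM-scaled CPM (vertical axis, log scale, 1 panel per gene) in bHR and bLR females and males, with 1 point per rat and a bar at the subgroup median. The lines overlap in all 10 panels, and the points spread most for Sez6l2 (16.5 to 134 CPM) and least for Ino80e (41.9 to 70.6 CPM).

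The first comparison asked whether the lines differ in the expression of these genes. No member passed the threshold for lineage, and the lines overlapped in level for each of the 10. The median Log2FC (bLR vs. bHR) over the 10 was 0.04, with 7 positive and 3 negative, beside a median of -0.00 over all genes tested. By absolute Log2FC, Aldoa lay at percentile 88.2 of all genes, Mvp at 80.9 and Kctd13 at 76.0. The others lay at percentile 45.4 (Prrt2) or lower. Aldoa and Mvp had the smallest p-values, both with higher estimates in bLRs.

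For Aldoa, the 11 bHRs had a lowest level of 579 CPM, a median of 987 and a highest of 1444. The 12 bLRs had a lowest level of 762 CPM, a median of 1281 and a highest of 1521. Most bLRs thus lay above the bHR median, and the ranges overlapped over most of their length. Adjusted for sex and for both measures of the library, the Log2FC was 0.28 (SE 0.11, 95% CI 0.04 to 0.51, p = 0.0221), and it did not pass correction over all genes (FDR = 0.374, edgeR's quasi-likelihood test).

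For Mvp, the bHRs had a lowest level of 6.72 CPM, a median of 8.78 and a highest of 13.0. The bLRs had a lowest level of 8.27 CPM, a median of 11.2 and a highest of 15.1, and the ranges again overlapped. The Log2FC was 0.22 (SE 0.095, 95% CI 0.03 to 0.42, p = 0.0273, FDR = 0.406, edgeR's quasi-likelihood test). Both genes were also higher in rats with more %intergenic, which was higher in bLRs, and without %intergenic in the model their Log2FCs were 0.43 (FDR = 0.208) and 0.35 (FDR = 0.188) by the same test.

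The remaining estimates are given with the intervals of this model, and some of them depended on its terms. For the kinases, the Log2FC was 0.02 for Mapk3 (95% CI -0.25 to 0.28) and 0.04 for Taok2 (95% CI -0.19 to 0.27). Kctd13 had the lowest estimate, -0.19 (95% CI -0.45 to 0.07, p = 0.137). Among the vesicle release and neuronal membrane genes, it was 0.06 for Doc2a (95% CI -0.32 to 0.44), 0.09 for Prrt2 (95% CI -0.20 to 0.38) and -0.01 for Sez6l2 (95% CI -0.29 to 0.28). Doc2a had the widest interval of the 10. Of the nuclear genes, Ino80e had the narrowest interval, -0.09 (95% CI -0.22 to 0.05), and Maz stood at 0.05 (95% CI -0.21 to 0.30). With %rRNA only as covariate, the Log2FC was 0.37 for Sez6l2, 0.36 for Prrt2, 0.27 for Taok2, 0.21 for Maz and -0.20 for Ino80e (p = 0.0416, FDR = 0.282 by edgeR), and over the other settings it ran from -0.32 (males only) to -0.0090 (females only) for Kctd13, with p from 0.0238 to 0.966 and no FDR under 0.348 by edgeR, and from -0.29 to -0.12 as each rat was left out (lowest FDR 0.268), with -0.12 without the bHR male of family H08. In females only the Log2FC of Sez6l2 was -0.47 (p = 0.0196, FDR = 0.973 by edgeR).

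In counts, 0 of 10 members were called for lineage at an FDR below 0.10 by edgeR, limma-voom or DESeq2, where edgeR called 1.34% of the 13838 genes. These 185 calls rested in part on single rats, with 97 without the bHR male of family H02 and 436 without the bHR female of family H12. At an unadjusted p under 0.05 the count was 2 of 10 by each of the 3 tools, where 9.96% of all genes passed by edgeR. With counts of this size in 10 genes, the members' share cannot be set apart from the background.

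**Figure D2:**
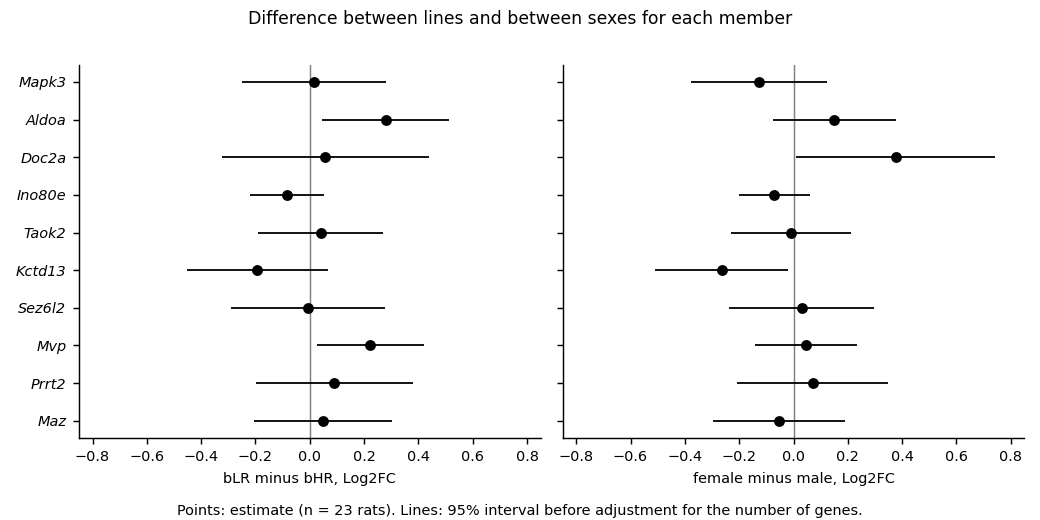
Log2FC of the 10 genes (horizontal axis) for bLR vs. bHR (left) and for female vs. male (right), with points at the estimate and bars for the 95% CI from edgeR's quasi-likelihood fit on 23 rats. The lineage intervals of Aldoa (0.04 to 0.51) and Mvp (0.03 to 0.42), and the sex intervals of Doc2a (0.01 to 0.74) and Kctd13 (-0.51 to -0.02), leave out 0, and none of the 10 genes passed FDR below 0.10 in either comparison.

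The estimates for Aldoa and Mvp were larger in males than in females. In the 6 bHR males Aldoa ran from 579 to 1444 CPM (median 759), and in the 6 bLR males from 762 to 1392 CPM (median 1281). The bHR male of family H02 had the highest Aldoa level among all males, and the bLR male of family L09 lay below all other bLR males. In males the Log2FC was 0.45 for Aldoa (p = 0.0105, FDR = 0.211 by edgeR) and 0.40 for Mvp (p = 0.00431, FDR = 0.160 by edgeR). In females it was -0.05 for Aldoa (p = 0.773 by edgeR) and 0.05 for Mvp (p = 0.748 by edgeR).

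This difference between the sexes did not pass its own test. In a model that held %rRNA but not %intergenic, the interaction Log2FC was -0.14 for Aldoa (p = 0.652 by edgeR) and -0.14 for Mvp (p = 0.563 by edgeR). With %intergenic added it was -0.42 for Aldoa (p = 0.0542, FDR = 0.613) and -0.32 for Mvp (p = 0.0728, FDR = 0.639), by the same test. No member was called for the interaction by edgeR, limma-voom or DESeq2, and no gene of the table was either (0% of 13838). At an unadjusted p under 0.05 it was 0 of 10 members by each of the 3 tools, beside 2.35% of all genes by edgeR. In females, Sez6l2 had the smallest p for lineage (Log2FC -0.47, p = 0.0196, FDR = 0.973 by edgeR), and in males its Log2FC was 0.10.

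The second comparison, of females with males, carries age and day of dissection with it. Again 0 of 10 members were called by edgeR, limma-voom or DESeq2, where edgeR called 0.354% of all genes. These 49 calls ran from 18 without the bHR male of family H05 to 159 without the bLR male of family L06, and DESeq2 made 157. At an unadjusted p under 0.05 the members numbered 2 by edgeR, 2 by limma-voom and 1 by DESeq2, beside 11.2% of all genes by edgeR. The members at that level by edgeR were Doc2a and Kctd13, which pointed in opposite directions.

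Doc2a, the vesicle release sensor, ran in the 12 males from 5.05 to 15.1 CPM (median 9.01) and in the 11 females from 8.0 to 18.0 CPM (median 11.3). No female reached as low as the lowest males, and the upper ranges overlapped. The Log2FC (female vs. male) was 0.38 (SE 0.18, 95% CI 0.01 to 0.74, p = 0.0451, FDR = 0.434 by edgeR). Kctd13 ran in males from 20.6 to 94.4 CPM (median 69.8) and in females from 26.6 to 102 CPM (median 56.3), ranges that overlapped over most of their length, and its Log2FC was -0.26 (SE 0.12, 95% CI -0.51 to -0.02, p = 0.0357, FDR = 0.407 by edgeR). As each rat was left out it ran from -0.33 to -0.14, the latter without the bHR male of family H08. For Kctd13 the estimate depended on the covariates, being 0.02 without %rRNA and %intergenic. The other 8 estimates lay between -0.13 (Mapk3) and 0.15 (Aldoa).

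The neighbors on chromosome 1 were looked at in the same fit. Of the other 12 named genes between Coro1a and Spn, 0 were called for lineage and 0 had an unadjusted p under 0.05 by edgeR, limma-voom or DESeq2, and their median Log2FC was 0.06. The smallest p-values were those of Tmem219 (Log2FC 0.19, p = 0.0843) and of Kif22 (Log2FC 0.32, p = 0.0879). Of 32 named genes within 0.5 Mb on either side, edgeR called 0, and their median Log2FC was -0.01. It gave 3 an unadjusted p under 0.05 (Zfp764 0.31, p = 0.0148, Mylpf -0.44, p = 0.0397 and Spns1 0.27, p = 0.0399). Over all genes edgeR called 1.34% and gave 9.96% such a p, so the count for these genes cannot be set apart from the background.

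Genes of the members' own pathways could be matched only in part, 10 of 78 symbols, and edgeR called 0 of the 10 for lineage. Of the glycolytic genes, beside aldolase A, Pgam1 (phosphoglycerate mutase) had a Log2FC of -0.24 (p = 0.0307, FDR = 0.424 by edgeR) and Ldha (lactate dehydrogenase A) of 0.22 (p = 0.0751), so that the 2 pointed in opposite directions. None of the other 8 (among them Hras, Rps6ka2 and Dusp5 of the ERK cascade, Syt7 of vesicle release, Gpi of glycolysis, Ruvbl2 and Tfpt of the INO80 complex) had an unadjusted p under 0.05.

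The levels of the members went with 2 measures of the library, %rRNA and %intergenic. With more ribosomal RNA in a library, 6 of the 10 members were lower: Kctd13, Sez6l2, Mapk3, Maz, Taok2 and Prrt2. In the 3 rats with the least rRNA (1.23%, 1.23% and 1.36%), Kctd13 stood at 92.5, 102 and 77.2 CPM. In the 3 rats with the most (3.63%, 3.80% and 3.98%) it stood at 35.4, 26.6 and 20.6 CPM, and the 2 sets did not overlap. Mapk3 did the same, with 77.5, 79.9 and 77.7 CPM against 28.1, 26.8 and 18.3 CPM. The sets were also apart for Taok2, Sez6l2, Maz and Prrt2, and how many of all genes do so was not counted.

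Across the 23 rats, after subtracting subgroup means, the correlation with %rRNA was -0.90 for Kctd13 (rho -0.90, permutation p = 2e-05 for r and 1e-05 for rho, the second being the smallest that 100000 permutations can give, Benjamini-Hochberg adjusted over 20 relations 0.00010 and 6.67e-05). For Mapk3 it was -0.88 (rho -0.87, permutation p = 2e-05 for each, adjusted 0.00010 and 8e-05). Leaving out the 2 rats with %rRNA farthest from its median, the values were -0.90 and -0.88, and within the sexes -0.88 and -0.86 in males and -0.92 and -0.90 in females. The r was -0.79 for Maz, -0.75 for Taok2, -0.70 for Sez6l2 and -0.56 for Prrt2, with adjusted permutation p from 0.00012 to 0.0112. Aldoa, Doc2a, Mvp and Ino80e had r between -0.18 and 0.32, none past the threshold. In males alone, 3 of the 10 relations passed.

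With more reads outside genes, a different set of members moved. Aldoa was higher (r 0.80, rho 0.79, permutation p = 1e-05 and 2e-05, adjusted 0.00010 and 8e-05) and Ino80e was lower (r -0.82, rho -0.79, permutation p = 1e-05 for each, adjusted 0.00010 and 6.67e-05). Leaving out the 2 rats with %intergenic farthest from its median, r was 0.76 for Aldoa and -0.72 for Ino80e. In males it was 0.80 and -0.91, and in females 0.83 and -0.70. Mvp (0.78), Prrt2 (0.71), Sez6l2 (0.66), Taok2 (0.56), Doc2a (0.55) and Maz (0.44) also passed, with adjusted permutation p from 0.000367 to 0.0329, while Mapk3 (0.16) and Kctd13 (0.08) did not. Ino80e thus went against the other members here. In females alone, 2 of the 10 relations passed.

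Most genes of the table were tied to these 2 measures too, so that the members' counts have to be read against a high background. After subtracting subgroup means, the lower and upper quartiles of r with %rRNA over all genes were -0.66 and 0.58. In the model of lineage, where each coefficient is per percentage point, 6 of 10 members were called as lower with %rRNA and 0 as higher, beside 40.2% and 36.2% of all genes, by edgeR. The coefficients ran from -0.75 (Sez6l2, SE 0.09) and -0.73 (Kctd13, SE 0.08) to -0.44 (Prrt2, SE 0.09). With %intergenic, 7 members were called as higher and 1, Ino80e (-0.14, SE 0.03), as lower, beside 35.4% and 33.4% of all genes, and the largest coefficient was 0.42 for Sez6l2 (SE 0.05). The %rRNA of a library was itself correlated with the RNA concentration in the labels (r -0.66 within subgroups, a description over 23 rats) and %intergenic with RIN (r -0.64), and what lies behind them was not tested.

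**Figure D3:**
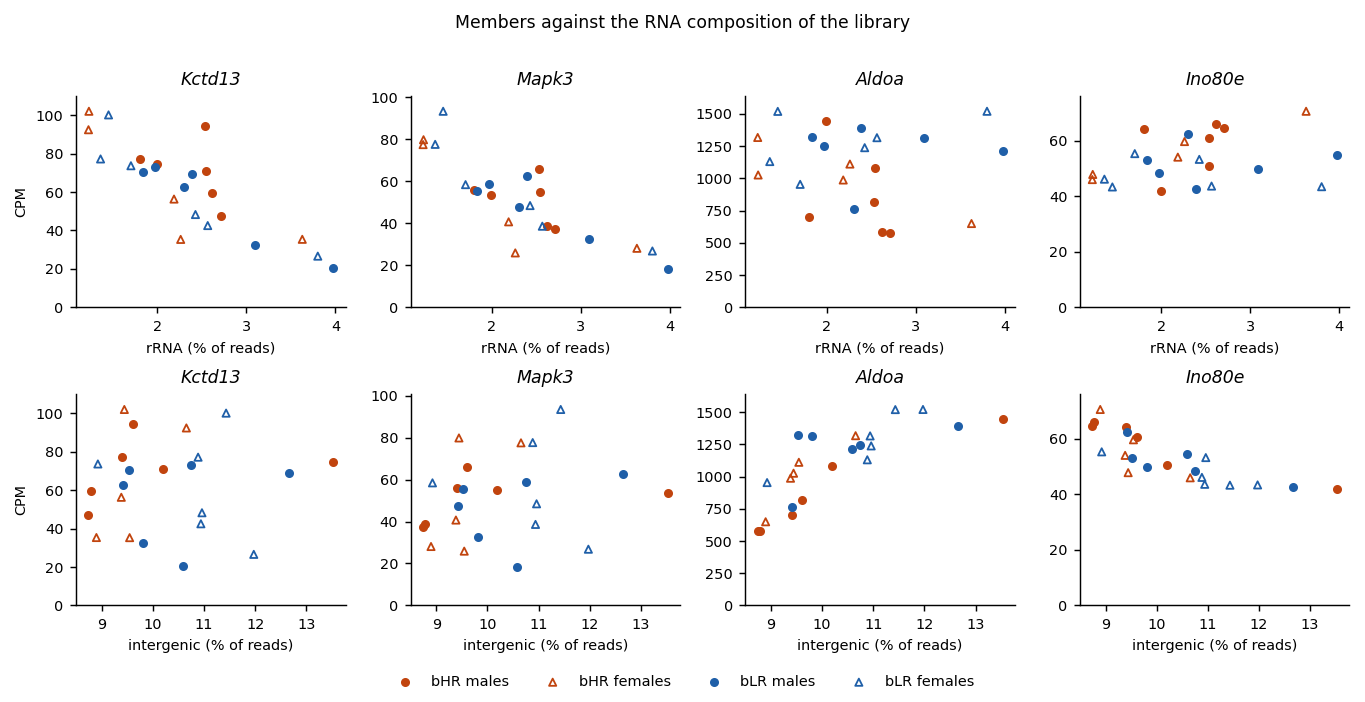
CPM of Kctd13, Mapk3, Aldoa and Ino80e (vertical axes) against the percent of rRNA reads (upper row) and of intergenic reads (lower row), with 1 point per rat, filled circles for males, open triangles for females, and a color for each line. Kctd13 (r -0.90 within subgroups) and Mapk3 (r -0.88) fall along the upper axis, and Aldoa (r 0.80) rises and Ino80e (r -0.82) falls along the lower one.

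The third comparison asked which members vary together from rat to rat. It was made on log2 CPM after removing subgroup means and the linear fits on %rRNA and %intergenic. The permutations shuffled these values over all rats and made no allowance for the terms removed. The p-values of pairs are therefore too low, most of all within single sexes, and calls near the threshold are uncertain. There were 45 pairs to test. Of these, 17 passed a Benjamini-Hochberg threshold of 0.10 by Pearson's r (16 by Spearman's rho), 13 positive and 4 negative. Over the 23 rats all 4 negative pairs held Ino80e, and no pair with Mvp passed. In females alone no pair with Ino80e passed, and the negative pairs that did were Aldoa and Taok2 (r -0.65), Aldoa and Sez6l2 (r -0.65), and Mvp and Prrt2 (r -0.65), each with an adjusted permutation p of 0.0936. In males alone Sez6l2 and Mvp passed (r 0.66, adjusted permutation p = 0.0774). With subgroup means only removed, Mvp passed with 5 of the other 9 members, namely Aldoa (r 0.59), Ino80e (r -0.59), Doc2a (r 0.51), Sez6l2 (r 0.43) and Prrt2, there with a positive r (0.38). The adjusted permutation p of these pairs ran from 0.00542 to 0.0981. The r with Doc2a, Sez6l2 and Prrt2 lay below the median absolute r of all pairs of genes tested in that setting (0.52). The count was 35 when %rRNA and %intergenic were left in. In that setting the median absolute r was 0.63 over the 45 pairs and 0.52 over all pairs of genes tested. It was 11 without the bHR male of family H04 and 10 without the 2 farthest rats. Those are the 2 rats farthest from the median of the pair's first gene along the chromosome, and the second gene was not used to choose them.

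The closest pair was Mapk3 and Kctd13, 174 kb apart between midpoints on the same strand (r 0.92, rho 0.88, permutation p = 1e-05 for each, the smallest they can give, adjusted 0.00015). Without the 2 rats farthest from the median r was 0.86, and it was 0.92 in males and 0.97 in females. Next came Prrt2 and Maz, which sit beside each other on the minus strand (r 0.88, rho 0.87, permutation p = 1e-05 for each, adjusted 0.00015). Their r was 0.88 without the 2 farthest rats, 0.90 in males and 0.83 in females. Taok2 and Sez6l2, on opposite strands with Kctd13 between them, had r 0.87 (rho 0.80, permutation p = 1e-05 for each, adjusted 0.00015), with 0.87 without the 2 farthest rats, 0.83 in males and 0.76 in females.

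The glycolytic Aldoa and the vesicle gene Doc2a had r 0.78 (rho 0.71, permutation p = 3e-05 and 0.00033, adjusted 0.000337 and 0.00297). It was 0.76 without the 2 farthest rats, 0.93 in males and 0.67 in females. Maz also went with Taok2 (r 0.74, rho 0.71, permutation p = 0.00013 and 0.00028, adjusted 0.00117 and 0.00297) and with Sez6l2 (r 0.71, rho 0.69, permutation p = 0.00021 and 0.00045, adjusted 0.00157 and 0.00337). Without the 2 farthest rats these were 0.76 and 0.72, in males 0.77 and 0.79, and in females 0.67 and 0.52. All 6 pairs among Taok2, Sez6l2, Prrt2 and Maz passed over the 23 rats, with r from 0.66 to 0.88. In females only 3 of them passed, and r was 0.57 for Taok2 and Prrt2, 0.52 for Sez6l2 and Maz and 0.36 for Sez6l2 and Prrt2, which did not. In males only Taok2 and Prrt2 did not pass (r 0.59, adjusted permutation p = 0.124).

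**Figure D4:**
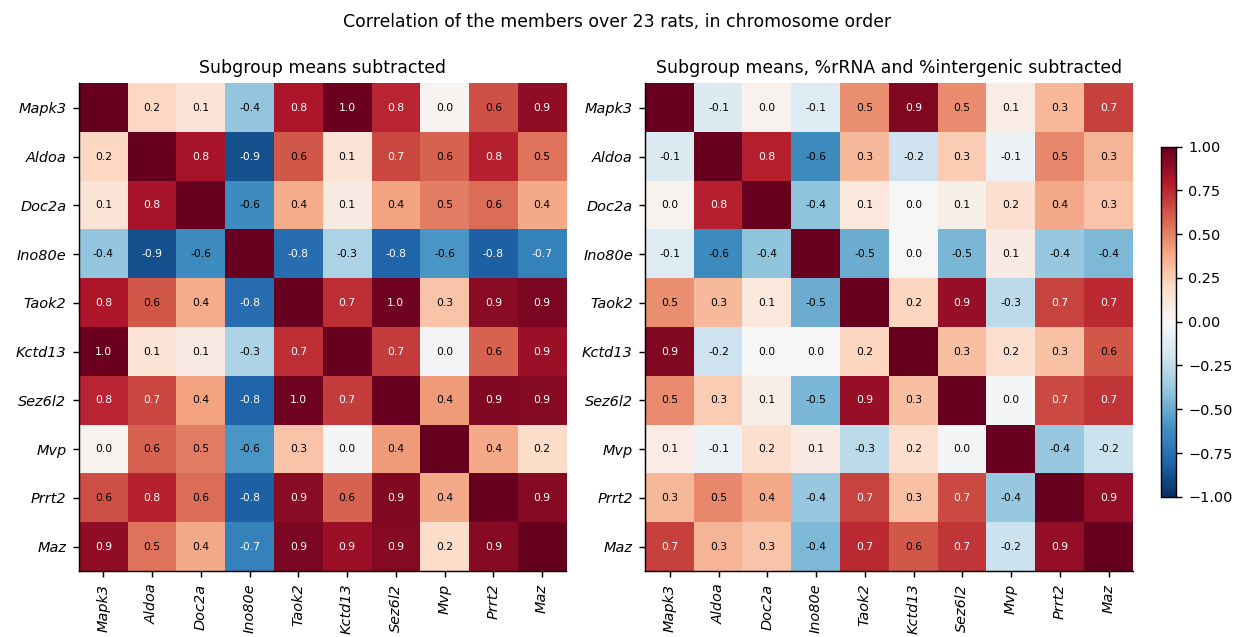
Pearson's r of the 45 pairs over 23 rats, in the order of the genes on chromosome 1, with subgroup means alone removed and with %rRNA and %intergenic removed as well (color scale from -1 to 1). With both removed, r is 0.66 to 0.88 among Taok2, Sez6l2, Prrt2 and Maz, which are not all side by side. Kctd13 and Mvp lie among them in the map (0.22 for Taok2 and Kctd13, -0.38 for Mvp and Prrt2). The row of Ino80e is mostly negative, and the median of all pairs is 0.17, against 0.51 with subgroup means alone removed.

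Doc2a and Ino80e, whose ends overlap on opposite strands, had a negative r of -0.40 that did not pass (rho -0.38, permutation p = 0.0577 and 0.0726, adjusted 0.144 and 0.172). It was -0.27 without the 2 farthest rats, -0.87 in males and -0.03 in females, and this difference between the sexes was not tested. Of 9 pairs with Ino80e, 8 were below 0. Among the 4 that passed, r was -0.80 in males and -0.37 in females with Aldoa, -0.73 and 0.07 with Taok2, -0.67 and 0.03 with Sez6l2, and -0.44 and -0.32 with Maz; the difference between the sexes was not tested. With all 24 rats, and also with RLE size factors, the pair with Aldoa alone of these 4 still passed.

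Members that followed each other along the chromosome, in most cases with genes outside the list between them, ranged widely. Of these 9 pairs, 3 passed (Aldoa and Doc2a, Ino80e and Taok2, and Prrt2 and Maz), and the median r of the 9 was -0.01, where with subgroup means only removed it was 0.43. Ino80e and Taok2 did not pass with RLE size factors (adjusted permutation p = 0.167) or with all 24 rats (adjusted permutation p = 0.136). Mvp and Prrt2, separated by 1276 bp, had r -0.38 (adjusted permutation p = 0.166), with 0.12 in males and -0.65 in females. Without the bLR male of family L03 that r was -0.58 (adjusted permutation p = 0.0156), and it also passed without the bHR male of family H05 (r -0.46, adjusted permutation p = 0.0926). Without the bLR male of family L07 it was -0.14 (adjusted permutation p = 0.691). As a description, the median r was 0.17 over the 45 pairs, 0.00 over the 231 pairs of the 22 named interval genes, 0.04 over 5348 pairs of chromosome 1 genes under 0.3 Mb apart elsewhere, and 0.01 over all pairs of genes tested.

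The pairs that passed have an absolute r of at least 0.449. That size was reached by 37.8% of the 45 pairs and by 28.9% of all pairs of genes in the table. The points of every pair share their libraries and the depth of those libraries.

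**Figure D5:**
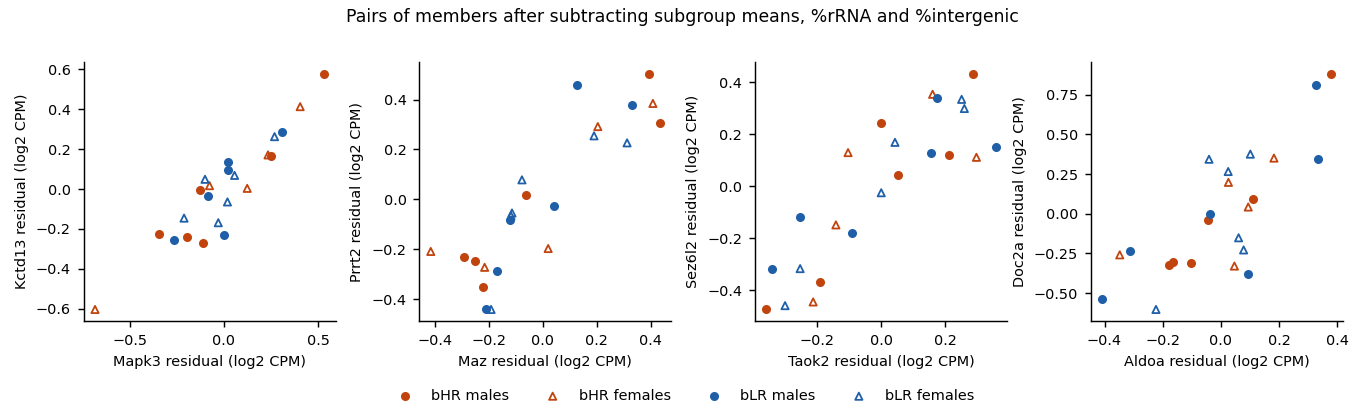
Log2 CPM of both genes of selected pairs after removing subgroup means, %rRNA and %intergenic, with 1 point per rat, colors for the lines and shapes for the sexes. The pairs are Mapk3 and Kctd13 (r 0.92), Maz and Prrt2 (r 0.88), Taok2 and Sez6l2 (r 0.87) and Aldoa and Doc2a (r 0.78), and in the first a bHR female lies alone at the lower end.

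Other genes followed the members as closely. The closest named gene outside the interval was sought among the 1906 genes given a symbol, a minority of those tested and in large part from chromosome 1. Over the same 23 rats, the named gene with the highest r was Grk2 for both Mapk3 (0.94) and Kctd13 (0.93). It was Ube2ql1 for both Prrt2 (0.89) and Maz (0.91), and Arhgap35 for Taok2 (0.93). For Aldoa it was Pld3 (0.92), for Doc2a Tmem132a (0.89) and for Ino80e Ca11 (0.74). Among all 13837 other genes, Mapk3 ranked 15th for Kctd13 and Kctd13 31st for Mapk3. Maz ranked 7th for Prrt2, and Prrt2 47th for Maz. Sez6l2 ranked 62nd for Taok2, and Taok2 82nd for Sez6l2. Doc2a ranked 217th for Aldoa, and Aldoa 39th for Doc2a. For Mvp and Ino80e the closest member was at rank 5373 and rank 5976.

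Within each line, the level of no member passed the threshold against the LocoScore, the count of movements in a new cage for which the lines were bred. None of the 20 relations passed Benjamini-Hochberg 0.10, and the smallest p was that of Prrt2 in the 12 bLRs (r -0.56, rho -0.47, permutation p = 0.0712 and 0.128, adjusted 0.426 and 0.597). Without the 2 rats farthest from the median LocoScore that r was -0.28. In the 11 bHRs the largest r was 0.54, for Sez6l2 (rho 0.44, permutation p = 0.108 and 0.209, adjusted 0.426 and 0.597), and 0.32 without the 2 farthest rats. Neither %rRNA nor %intergenic was removed from these values. In bHRs 9 of the 10 were above 0 and in bLRs 9 of the 10 below 0, with Ino80e the exception in both. The difference between the lines was not tested. With %rRNA removed, Mapk3 (r -0.0063), Kctd13 (-0.21), Prrt2 (-0.014) and Maz (-0.085) were also below 0 in bHRs, and Sez6l2 stood at 0.20. In bLRs the signs stayed the same. Without the 2 farthest rats, Doc2a was below 0 in bHRs (-0.14). In bLRs Aldoa (0.02), Doc2a (0.09) and Mvp (0.0020) were then above 0 and Ino80e below it (-0.11). The signs over all genes were not counted.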

How the data were processed

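Whole hippocampus of 24 F0 rats was profiled by poly-A RNA-Seq. The authors aligned the reads to Rnor6 with STAR 2.7.3a, kept unique hits and assigned them by strand to Ensembl v103 genes with Subread 2.0.0, and the deposited values are the raw counts per gene, without normalization or filter. Reads that fit several gene copies are missing from them. The group, family, RIN, %rRNA, %intergenic and LocoScore of each rat come from the labels.

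Of these, 23 rats were used, and the 13838 genes that reached 1 CPM in 25% or more of them were kept. Counts were scaled by TMM and tested with edgeR 4.0.16 (R 4.3.3), by its quasi-likelihood test, on lineage (reference bHR) and sex (reference male), adjusted for %rRNA and %intergenic, the terms of the study's model. The interaction model left out %intergenic. P-values were adjusted over all genes by the Benjamini-Hochberg method at 0.10, and they measure the spread between rats. Correlations used log2 CPM with a prior count of 2 and 100000 two-sided permutations (Python 3.11.15, numpy 2.4.6). For pairs the permutations made no allowance for the means and slopes removed beforehand. The fits were tested on simulated data.

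The members, gene lists and tests were chosen with earlier results of these data known. Named outside the members were, per list, the genes with the smallest p, and per member the closest gene by r. Some genes that this rule names are not reported here. Of the pairs, the 6 with the largest absolute r were named, and Doc2a with Ino80e; other pairs that the text names were chosen after their values were seen. The same terms were also fitted with limma-voom (limma 3.58.1) and with DESeq2 1.42.0, and alternatives in edgeR used other scalings, filters and covariates, all 24 rats, single sexes, family as a fixed block (as a random block in limma-voom), and every rat left out. The tests of the %rRNA and %intergenic coefficients were added after seeing the data. A symbol could be given to 1928 of the genes tested.

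The labels put 1 male and 1 female in each family, which pairs them, and 11 families had both rats in the fit. Deviations of same-family rats from their subgroup means had a median correlation over genes of 0.15 (range -0.72 to 0.78), and -0.01 (range -0.41 to 0.37) with the covariates removed.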

Additional observations from a re-analysis of the deposited data

Results flagged for a closer look

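The level of each member within each subgroup of line and sex was checked for a rat far from the rest in 40 groups of 5 or 6 rats, of which chance marks about 1 in 20, and 2 stood out. Aldoa in bLR males had its lowest level, 762 CPM, in the rat of family L09, where the next was 1215 CPM. Mvp in bHR males had its highest level, 13.0 CPM, in the rat of family H02, where the next was 8.78 CPM. The lineage Log2FC of Aldoa was 0.32 (p = 0.00982 by edgeR) without the first rat, and that of Mvp was 0.22 (p = 0.0601 by edgeR) without the second.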

How the results depend on the processing

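By edgeR, and by limma-voom and DESeq2 where run, 0 members were called for lineage, sex or the interaction and 0 of the other interval genes for lineage under every alternative, leaving out each rat included. The lowest FDR was 0.160 for lineage (Mvp, males only), 0.173 for sex (Doc2a, without the bLR male of family L06) and 0.613 for the interaction (Aldoa, both measures in the model). Family as a replicate block changed no call: as a random block its intra-block correlation was 0.00852 and the lineage Log2FC was 0.28 for Aldoa and 0.23 for Mvp, and as a fixed block the sex Log2FC was -0.35 for Kctd13 and 0.32 for Doc2a.

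Some estimates changed sign, none of them called, and the cause was not tested. For lineage, the Log2FC of Mapk3 was -0.0037 with library size alone, -0.080 with all 24 rats and -0.12 in males, and that of Sez6l2 was 0.15 without covariates, 0.37 with %rRNA only and 0.10 in males. In females it was -0.049 for Aldoa, -0.25 for Doc2a, -0.22 for Taok2, -0.19 for Prrt2 and -0.067 for Maz. For sex, without covariates it was 0.16 for Mapk3, 0.26 for Taok2, 0.022 for Kctd13 and 0.20 for Maz, and with %rRNA only -0.010 for Sez6l2. That of Taok2 was also 0.0075 by limma-voom, 0.024 by DESeq2, 0.024 with RLE, 0.018 with upper quartile, 0.035 with library size alone, 0.036 with a filter of 1 raw read and 0.0071 with no filter. Leaving out each rat, the lineage Log2FC ran from -0.12 to 0.086 for Mapk3, -0.12 to 0.17 for Doc2a, -0.11 to 0.12 for Taok2, -0.22 to 0.11 for Sez6l2, -0.031 to 0.15 for Prrt2 and -0.084 to 0.10 for Maz. The sex Log2FC ran from -0.045 to 0.077 for Taok2, -0.033 to 0.14 for Sez6l2 and -0.10 to 0.048 for Maz.

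Of the 45 pairs, 35 passed with subgroup means only, where the median absolute r over all pairs of genes tested was 0.52. Without the 2 farthest rats 10 passed, and leaving out each rat gave 11 (without the bHR male of family H04) to 20. The median r was 0.51 with subgroup means only, 0.11 with RLE, 0.38 in males and 0.028 in females. Doc2a and Ino80e passed with subgroup means only (r -0.63), RLE size factors (r -0.46), males only (r -0.87), and without the bLR female of family L01 (r -0.54), the bHR female of family H12 (r -0.48) or the bLR female of family L09 (r -0.45), and r ran up to -0.25 as each rat was left out. Single rats also decided 3 of the 4 called pairs of Ino80e. The pair with Taok2 lost its call without any 1 of 4 rats (males of H04, L09 and L10, female of H11), that with Sez6l2 without any 1 of 9 (the same 4, males of H02 and H05, females of H02, H12 and L10), and that with Maz without any 1 of 10 (males of H02, H04, H05, L01 and L09, females of H02, H11, H12, L03 and L10). The r ranges were -0.63 to -0.41, -0.58 to -0.37 and -0.54 to -0.35. Relations that passed numbered 3 of 10 for %rRNA in males and 2 of 10 for %intergenic in females. The r with %rRNA turned for Aldoa with all 24 rats (0.011), for Doc2a with all 24 rats (0.084) and in females (0.14), and for Mvp without the 2 farthest rats (-0.079) and in males (-0.42), and that of Kctd13 with %intergenic was -0.029 and -0.069 without the 2 farthest rats and in females.

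With 5 or 6 rats a subgroup and standard errors of 0.07 to 0.18 (log2) for the members' lineage estimates, small differences were not detectable. The identity of the tissue was not checked with neuronal markers, whose symbols were not matched here.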

Other observations

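The bHR female of family H05, left out above for its RIN of 6.3, had the highest level of 24 rats in 3 of the members when all 24 were scaled together. It had 1915 CPM of Aldoa, where the other 23 rats ran from 579 to 1519 CPM. It had 24.8 CPM of Doc2a, where the others ran from 5.05 to 17.9 CPM, and 15.8 CPM of Mvp, where they ran from 6.71 to 15.1 CPM. It had 14.0% of reads outside genes, the most of the 24 rats. In Mapk3, Ino80e and Kctd13 it lay in the middle of the others, at 50.9, 51.7 and 56.6 CPM.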
